A study of Homo sapiens with 12 samples.

Results

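The genes described here are 9 classical interferon-stimulated genes: IFIT1, IFIT2, IFIT3 and IFIT5 of the IFIT family, ISG15, MX1, IFI6, IFI44 and IRF9. They were taken by name, as the rows of a table of 70116 Ensembl gene identifiers that map to these symbols. The rule uses no measured value, but the list was drawn up with earlier results of these data known. All 9 were found in the table, 8 passed the filter on low counts and were tested among 16197 genes, and IRF9 was listed at 0 reads in every library.

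Interferon-stimulated genes form the transcriptional arm of innate antiviral defence. Type I and type III interferons bind receptors that activate the Janus kinases JAK1 and TYK2, which phosphorylate STAT transcription factors. STAT2 joins IRF9 in a complex that binds a DNA element, the interferon-stimulated response element, in front of its target genes. Many tumour lines keep a low basal level of these transcripts without added interferon.

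The cells were MiaPaCa-2, an established human pancreatic carcinoma line, transfected with siRNAs, short double-stranded RNAs through which the cell degrades a transcript of matching sequence. There were 4 groups of 3 libraries, 12 in all: siControl, siSLC25A1 (against the mitochondrial citrate carrier), siACLY (against ATP citrate lyase, which makes cytosolic acetyl-CoA from citrate) and siACO1 (against cytosolic aconitase, which is also an iron-regulated RNA-binding protein). No group was given interferon or a virus in the labels. The labels number the replicates but do not say whether they were separate cultures, so p-values measure the spread between these libraries, which may be technical. The labels give neither how many siRNAs were used per target nor the hours between transfection and harvest, so the effect of a target and of an siRNA sequence cannot be told apart. All 3 knockdowns were compared with the same 3 siControl libraries.

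Library totals ran from 24159424 to 43792811 reads, and 3 reads in a library corresponded to 0.0674 to 0.124 CPM (counts scaled to a common library size). Each siRNA lowered its target: SLC25A1 fell to 8.78% of siControl, ACLY to 7.25% and ACO1 to 3.75%. KRT8, KRT18, KRT19 and VIM, markers of a carcinoma line with mesenchymal traits, were abundant. Summed with EPCAM, they stood at 7226 to 7270 CPM in siControl, 6945 to 7347 in siSLC25A1, 8094 to 8735 in siACLY and 5542 to 6021 in siACO1. Of the 4 tested, 1 was called higher and 2 lower in siSLC25A1, 2 higher in siACLY and 3 lower in siACO1. Of all tested genes, 19.6%, 36.7% and 37.1% were called in these groups. EPCAM had 0 reads in siControl and at most 0.0776 CPM elsewhere. Markers of acinar or endocrine pancreas (5 genes) and of plasmacytoid dendritic cells (3 genes) were all listed at 0. PTPRC, CD3E and MS4A1 of the 5 leukocyte markers were listed at 0 as well, and the sum of the list, carried by LYZ and CD14, was 1.20 to 2.00 CPM in siControl and 1.93 to 2.98 CPM in the knockdowns. The fibroblast list, carried by COL1A2, summed to 1546 to 1592 CPM in siACO1 and to 784 to 895 CPM in the other groups. The part of these markers in the results below was not tested. The siACO1 replicate 3 library stood apart from its replicates, with a chi-square per degree of freedom of 11.8 and 12.5 against 2.31 between the other pair. The member calls and pathway counts of siACO1 against siControl are therefore also given without it. Values of single genes in siACO1 include this library unless its removal is stated.

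The element through which the pathway acts is shown here because it lies in the promoters of most of these genes. In the 250 bases before each RefSeq start (GRCh38.p14), the core GAAANNGAAA was searched on both strands. It was present in 7 of the 8 members with an entry, IFIT1, IFIT3, IFIT5, ISG15, MX1, IFI6 and IFI44, and in 3.71% of all 27305 genes with an entry (3.02% of 35116 promoters of the same length). In the list of other type I interferon-stimulated genes used here, 24 of 44 with an entry (54.5%) held it. IRF9 had no match in this window, and IFIT2 was not in the table. In the sequences below, read on the strand of the gene, capitals mark the core, which reads TTTCNNTTTC where it lies on the opposite strand.
IFIT1, chr10:89392504-89392533: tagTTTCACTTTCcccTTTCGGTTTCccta
IFIT3, first start, chr10:89327865-89327894: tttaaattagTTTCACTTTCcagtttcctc
IFIT3, second start, chr10:89332468-89332497: gttccatcagTTTCACTTTCctttcccctt
IFIT5, chr10:89414513-89414542: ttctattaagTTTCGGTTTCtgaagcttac
ISG15, chr1:1013377-1013406: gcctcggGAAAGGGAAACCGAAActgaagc
MX1, chr21:41431844-41431873: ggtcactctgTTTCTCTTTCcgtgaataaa
IFI6, chr1:27672329-27672358 (minus strand): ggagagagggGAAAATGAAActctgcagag
IFI44, chr1:78649759-78649788: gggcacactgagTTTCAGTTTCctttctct
IFIT1 holds 2 cores within 1 stretch of 30 bases, beginning 116 and 103 bases before the start, and ISG15 holds 2 overlapping cores, beginning 113 and 107 bases before it. IFIT3 has 2 cores before each of its 2 listed starts, IFIT5 has 2, the last of them ending 10 bases before the start, and IFI6 has 3, at 156, 115 and 93 bases. MX1 has a core before 1 of its 3 listed starts. A gamma-activated site (TTCNNNGAA, palindromic, found in 6.57% of promoters) was present only in the same MX1 promoter and in that of IRF9 among the members. Such matches describe the letters and not binding.

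Basal levels differed widely between the members. Per kilobase of exon in siControl, IFIT5 (5.94 ± 0.10 CPM per kb, SD, n = 3 for all levels), IFIT2 (5.44 ± 0.21) and ISG15 (5.41 ± 0.41) were highest. Below them stood IFI6 (4.31 ± 0.44), IFIT1 (3.80 ± 0.20) and IFIT3 (1.92 ± 0.16). MX1 (0.214 ± 0.030) and IFI44 (0.085 ± 0.019) were at the bottom. The length used is that of all annotated exons of a gene merged, 8616 bases for MX1 and 941 for ISG15. The order therefore depends in part on the annotation. The libraries of IFIT2 and ISG15 overlapped, as did those of IFI6 and IFIT1, while the steps from IFIT5 to IFIT2, from ISG15 to IFI6, and down to IFIT3, MX1 and IFI44 were free of overlap. The same order did not hold in every knockdown. IFI6 stood first in siACO1 at 10.0 ± 0.27 CPM per kb, and ISG15 stood first in siSLC25A1 at 9.02 ± 1.02. All further levels are CPM after scaling by trimmed mean of M values (TMM), not divided by length. In RNA from whole cultures, fewer cells expressing a gene and less RNA per cell cannot be told apart.

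**Figure D1:**
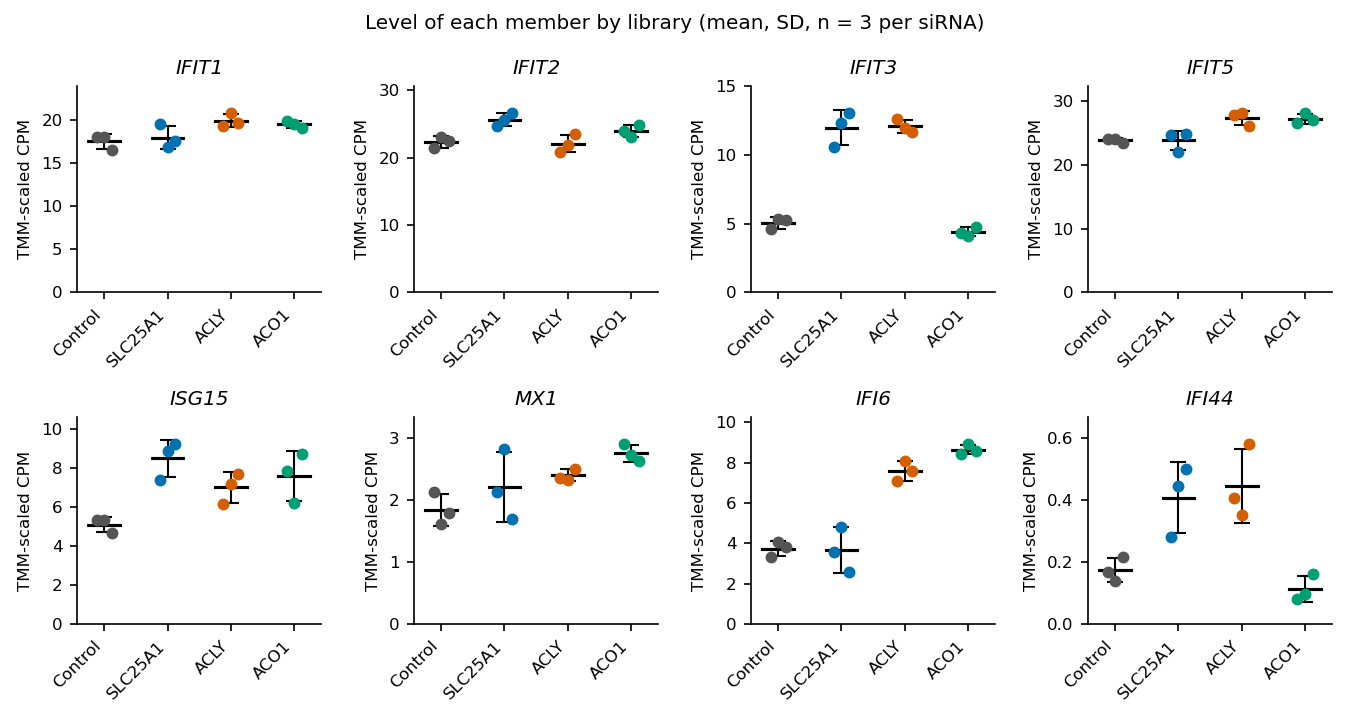
TMM-scaled CPM (vertical axis, from 0, its range set for each gene) of the 8 tested members in each of the 12 libraries, by siRNA target; points are libraries, the line and bars are the mean and SD of 3. IFIT3 is high in siSLC25A1 and siACLY and low in siControl and siACO1, whereas IFI6 is high in siACLY and siACO1 and low in siControl and siSLC25A1. IFI44, with 2 to 18 reads per library, passed the filter on low counts only through siSLC25A1 and siACLY.

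The 3 knockdowns raised different members. IFIT3 was 2.37-fold higher in siSLC25A1 and 2.39-fold higher in siACLY, and was not called in siACO1. IFI6 was 2.02-fold higher in siACLY and 2.32-fold higher in siACO1, and was not called in siSLC25A1. ISG15 was higher in all 3 knockdowns, by 1.65-fold, 1.35-fold and 1.48-fold in siSLC25A1, siACLY and siACO1. No member was called lower than siControl by edgeR's quasi-likelihood test at a Benjamini-Hochberg adjusted p under 0.05. DESeq2 also called none lower in these comparisons, and no member was lower at an unadjusted edgeR p under 0.05.

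Of the 9 members, 7 reached the minimum of the low-count filter, about 0.346 CPM, in all 12 libraries. IFI44 is treated apart because it reached it only in siACLY (3 libraries) and siSLC25A1 (2 libraries). Of those 7, 3 were called higher in siSLC25A1 (IFIT2, IFIT3 and ISG15), where 19.6% of all tested genes were called, 10.3% higher and 9.27% lower. In siACLY 4 of the 7 were called higher (IFIT3, IFIT5, ISG15 and IFI6), beside 36.7% of all tested genes (18.4% higher and 18.3% lower). In siACO1 the count was also 4 (IFIT5, ISG15, MX1 and IFI6), beside 37.1% of all tested genes (17.8% higher and 19.3% lower). The median log2 fold change of the 7 was 0.20 in siSLC25A1, 0.38 in siACLY and 0.19 in siACO1, and that of all tested genes was between -0.004 and 0.008. With library totals in place of TMM factors, the share of higher genes among all called ones was 61% in place of 50.1% for siACLY, and 59.5% in place of 47.9% for siACO1. No member changed direction where it was called. Without siACO1 replicate 3, IFIT5, ISG15, MX1 and IFI6 were again the members called in siACO1. The counts shrank with other libraries left out: leaving out siControl replicate 3, siACLY replicate 1 or siACLY replicate 3 took the number called in siACLY, IFI44 included, from 5 to 3.

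**Figure D2:**
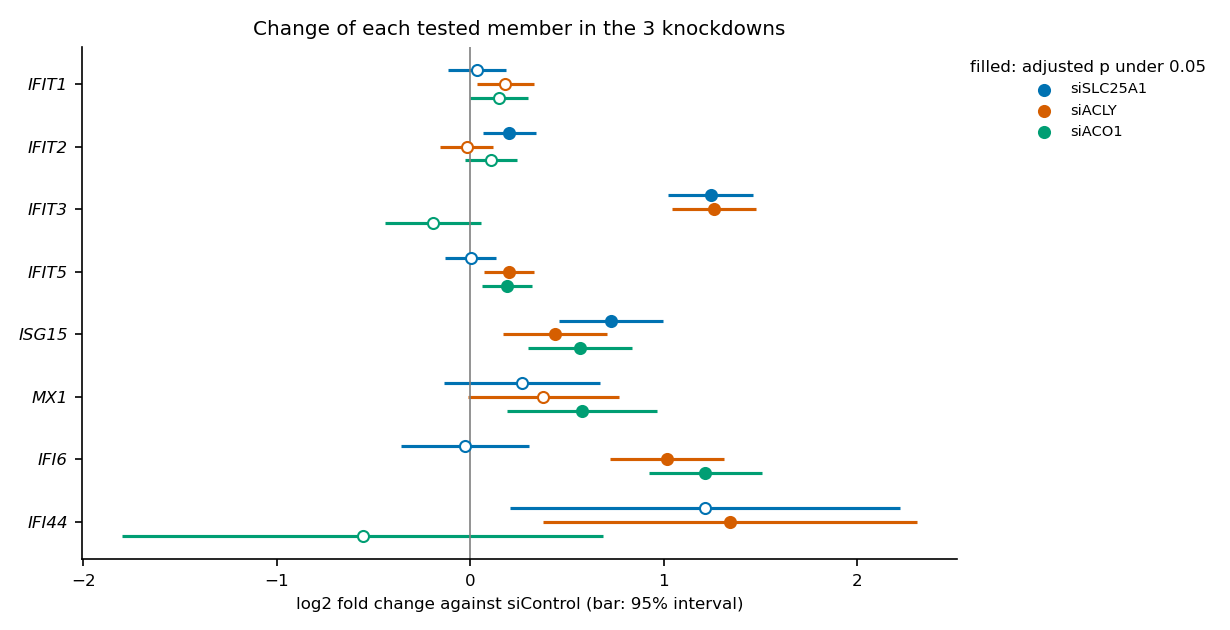
Log2 fold change of each tested member against siControl (horizontal axis) in the 3 knockdowns, with 95% intervals from the edgeR fit, not adjusted for the number of genes; filled points have an adjusted p under 0.05 and open points do not. IFIT3 lies near 1.25 in siSLC25A1 and siACLY and at -0.19 in siACO1, and IFI44, with 2 to 18 reads per library, has the widest intervals and passed the filter only through siSLC25A1 and siACLY.

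The IFIT members lie close together on chromosome 10 (GENCODE release 29, GRCh38, all on the plus strand): IFIT2 at chr10:89283694-89309276, IFIT3 at chr10:89327894-89340971, IFIT1 at chr10:89392546-89406486 and IFIT5 at chr10:89414586-89421001. IFIT1B, which is not a member, lies between IFIT3 and IFIT1 at chr10:89378056-89385205. Their proteins are built of tetratricopeptide repeats and bind RNA or each other. IFIT1 recognises foreign capped RNA that lacks a host methyl mark, IFIT3 binds and stabilises IFIT1, IFIT2 is a partner of both, and IFIT5 binds RNA with a free triphosphate end.

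IFIT3 measured 4.58, 5.33 and 5.29 CPM in siControl. It measured 10.6, 12.4 and 13.1 CPM in siSLC25A1 and 12.6, 12.0 and 11.6 CPM in siACLY. In siACO1 it measured 4.35, 4.13 and 4.78 CPM. Every siSLC25A1 and siACLY library thus lay above every siControl library by a wide margin, and the siACO1 libraries overlapped siControl at its low end. The log2 fold change was 1.24 in siSLC25A1 (SE 0.11, edgeR adjusted p 8.59e-10) and 1.26 in siACLY (SE 0.11, adjusted p 1.67e-10). In siACO1 it was -0.19 (SE 0.12, adjusted p 0.226, 95% interval -0.44 to 0.06), and -0.26 without siACO1 replicate 3 (adjusted p 0.14). The rises kept their call under all 13 alternatives tried for each, with log2 values of 1.17 to 1.33 in siSLC25A1 and 1.19 to 1.30 in siACLY.

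IFIT1, which IFIT3 binds as a protein, measured 18.0, 18.1 and 16.5 CPM in siControl. It measured 19.5, 16.9 and 17.5 CPM in siSLC25A1, which overlapped siControl, with a log2 fold change of 0.04 (95% interval -0.12 to 0.19). In siACLY it measured 19.3, 20.8 and 19.7 CPM and in siACO1 19.88, 19.57 and 19.04 CPM. Both of these groups lay wholly above siControl, but neither passed the test: the log2 fold changes were 0.18 (SE 0.07, adjusted p 0.0501) and 0.15 (SE 0.07, adjusted p 0.108). The siACLY value sits at the threshold and was called in 4 of 13 alternatives, with adjusted p from 0.0171 to 0.219. The upper ends of the 95% intervals were 0.33 in siACLY and 0.30 in siACO1.

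IFIT2 measured 21.4, 23.1 and 22.4 CPM in siControl and 24.7, 25.6 and 26.7 CPM in siSLC25A1. All siSLC25A1 libraries were above all siControl libraries, by a log2 fold change of 0.20 (SE 0.07, adjusted p 0.0318). That call was lost without siControl replicate 1 or 3 and without siSLC25A1 replicate 2 or 3 (adjusted p 0.0735 to 0.147). In siACLY it measured 20.9, 21.9 and 23.5 CPM, with a log2 fold change of -0.02 (adjusted p 0.853). In siACO1 it measured 24.0, 23.1 and 24.9 CPM, with a log2 fold change of 0.11 (adjusted p 0.223). Both groups overlapped siControl.

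IFIT5 was the most abundant of the family, with 24.1, 24.0 and 23.4 CPM in siControl. The siSLC25A1 libraries, at 24.7, 22.1 and 24.8 CPM, spread around that level (log2 fold change 0.00, 95% interval -0.13 to 0.14). The siACLY libraries, at 27.8, 28.2 and 26.2 CPM, and the siACO1 libraries, at 26.6, 28.1 and 27.0 CPM, all lay above it. The rises were small and called: 0.20 on the log2 scale in siACLY (SE 0.06, adjusted p 0.0127) and 0.19 in siACO1 (SE 0.06, adjusted p 0.0179). The siACLY call was lost without siControl replicate 3, siACLY replicate 1 or siACLY replicate 2 (adjusted p 0.0581 to 0.0629), and the siACO1 call without siControl replicate 3 (0.0709) or siACO1 replicate 2 (0.082).

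Because the 4 IFIT genes are counted in the same library, the make-up of the IFIT reads can be read without any scaling between libraries. IFIT3 made up 6.72%, 7.55% and 7.83% of the reads of the 4 IFIT genes in siControl, or 7.37 ± 0.58%. Its share was 15.1 ± 1.6% in siSLC25A1 and 14.8 ± 0.7% in siACLY, and 5.88 ± 0.41% in siACO1. The siSLC25A1 and siACLY libraries (13.3% to 16.1%) all lay above siControl, and the siACO1 libraries (5.51% to 6.32%) all lay below it. An exact two-sided permutation test gave p = 0.1 for each of the 3 knockdowns, the smallest value that 3 against 3 libraries can give. The share of IFIT1 moved less, from 25.5 ± 1.0% in siControl to 22.6 ± 1.7%, 24.5 ± 0.6% and 26.0 ± 0.7% in siSLC25A1, siACLY and siACO1. IFIT2 held 32.5 ± 0.9% in siControl and 27.1 ± 1.7% in siACLY, and IFIT5 held 34.7 ± 0.7% in siControl and 30.0 ± 1.2% in siSLC25A1. In siACO1 IFIT5 held 36.2 ± 1.1%. The same permutation test against siControl gave p = 0.1 for each of these changes of IFIT2 and IFIT5. Because the shares of a library add up to the whole, a larger share of 1 gene lowers the others. In CPM, the log2 fold change was -0.02 for IFIT2 in siACLY and 0.00 for IFIT5 in siSLC25A1. For siACO1 it was 0.19 for IFIT5, which was called, and -0.19 for IFIT3, which was not.

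**Figure D3:**
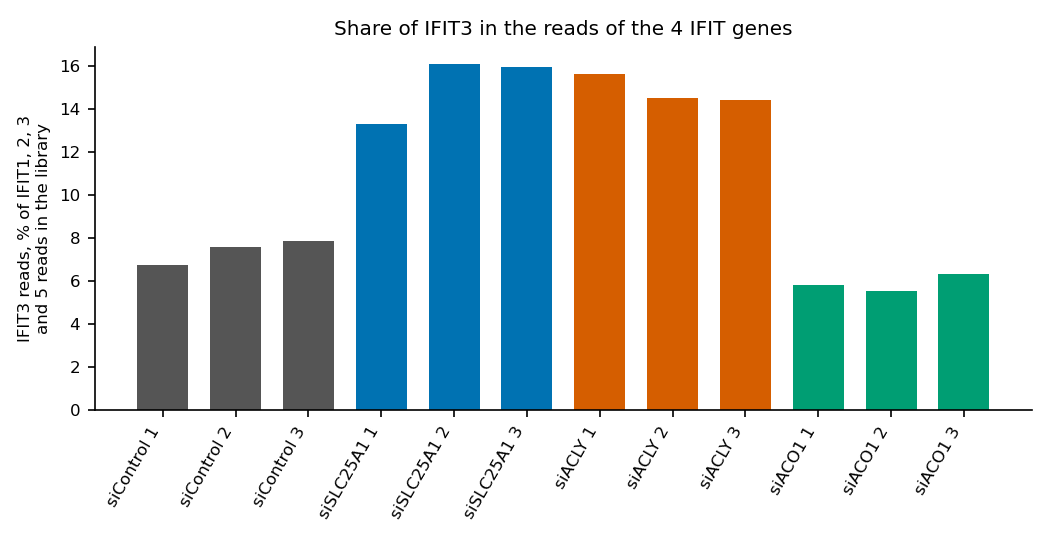
IFIT3 reads as a percentage of the reads of IFIT1, IFIT2, IFIT3 and IFIT5 in the same library (bars from 0), for the 12 libraries labelled by siRNA and replicate number. The 6 siSLC25A1 and siACLY libraries stand between 13.3% and 16.1%, the siControl libraries between 6.72% and 7.83%, and the siACO1 libraries between 5.51% and 6.32%.

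ISG15, at chr1:1001138-1014540 on the plus strand, encodes a ubiquitin-like protein that is attached to other proteins after interferon. It measured 5.30, 5.33 and 4.65 CPM in siControl. It measured 7.39, 8.85 and 9.20 CPM in siSLC25A1, 6.14, 7.18 and 7.67 CPM in siACLY, and 7.85, 6.21 and 8.70 CPM in siACO1. Every knockdown library lay above every siControl library. The log2 fold changes were 0.73 in siSLC25A1 (SE 0.13, adjusted p 0.00013), 0.44 in siACLY (SE 0.13, adjusted p 0.00914) and 0.57 in siACO1 (SE 0.13, adjusted p 0.000902). Without siACO1 replicate 3, the highest of its group, the siACO1 value was 0.45 (adjusted p 0.0095). The siACLY call was lost without siControl replicate 3 (adjusted p 0.0511) or siACLY replicate 3 (adjusted p 0.057).

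MX1, at chr21:41420304-41459214 on the plus strand, encodes a dynamin-like GTPase that blocks several RNA viruses. It was low, with 2.12, 1.61 and 1.79 CPM in siControl and 41 to 105 reads per library overall. In siACO1 it measured 2.90, 2.73 and 2.63 CPM, all above siControl, a log2 fold change of 0.58 (SE 0.19, adjusted p 0.0162). That call was lost without siControl replicate 2 (adjusted p 0.0842) or siACO1 replicate 1 (adjusted p 0.0509). The siACLY libraries, at 2.36, 2.33 and 2.51 CPM, also lay above siControl and did not pass the test (log2 0.38, adjusted p 0.123). The siSLC25A1 libraries, at 2.13, 2.82 and 1.70 CPM, overlapped it (log2 0.27, 95% interval -0.14 to 0.67).

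IFI6, at chr1:27666061-27672218 on the minus strand, encodes a small membrane protein with reported antiviral and anti-apoptotic action. It measured 3.32, 4.08 and 3.79 CPM in siControl and 3.56, 4.83 and 2.57 CPM in siSLC25A1. It measured 7.08, 8.07 and 7.60 CPM in siACLY and 8.45, 8.91 and 8.60 CPM in siACO1. The siSLC25A1 libraries spread on both sides of siControl, and all 6 siACLY and siACO1 libraries were far above it. The log2 fold change was 1.02 in siACLY (SE 0.14, adjusted p 1.8e-06) and 1.22 in siACO1 (SE 0.14, adjusted p 6.93e-08), and 1.22 in siACO1 without its replicate 3. In siSLC25A1 it was -0.03 (adjusted p 0.931, 95% interval -0.36 to 0.30). Both rises kept their call under all 13 alternatives, between 0.93 and 1.09 in siACLY and between 1.13 and 1.29 in siACO1.

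IFI44, at chr1:78649796-78664078 on the plus strand, encodes an interferon-induced protein of the cytoplasm. It gave 6, 5 and 6 reads in siControl, 8, 11 and 12 in siSLC25A1, 18, 9 and 15 in siACLY and 2, 3 and 5 in siACO1. In CPM the siControl libraries stood at 0.139 to 0.214, the siSLC25A1 libraries at 0.279 to 0.497 and the siACLY libraries at 0.349 to 0.578. These did not overlap siControl, and the siACO1 libraries, at 0.080 to 0.161, did. The fitted log2 fold changes were 1.34 in siACLY (SE 0.47, adjusted p 0.0256), 1.21 in siSLC25A1 (SE 0.49, adjusted p 0.084) and -0.56 in siACO1 (SE 0.61, adjusted p 0.51). Since the gene entered the test only through the groups where it was high, and since the siACLY call was lost in 6 of 12 alternatives, DESeq2 among them (adjusted p 0.0597), these values are a description of a few reads.

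IRF9, the DNA-binding part of the complex that acts on all the genes above, lies at chr14:24161053-24166565 on the plus strand and was listed at 0 in all 12 libraries. The value cannot be read as absence of the transcript, because its surroundings were empty too. All 26 coding genes within 100000 bases of it had at most 7 reads over the 12 libraries together, and 22 of them had 0. Among these were PSME1 and PSME2, subunits of the proteasome activator, and NEDD8, a ubiquitin-like protein, which nearly all cells express. The run of near-empty coding genes held 37 genes from CARMIL3 to NYNRIN (chr14:24052000-24419288), 32 of them at 0, between DHRS4L2 with 33 reads and CBLN3 with 338. Some generally expressed genes elsewhere were at or near 0 as well: COX5B, ATP5IF1 and TOMM6 had 0 reads and POLR2A had 19. In the annotation, 48.4% of the exon bases of IRF9 also belong to AL136295.5, which was at 0 as well. Why these genes have no reads was not tested.

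**Figure D4:**
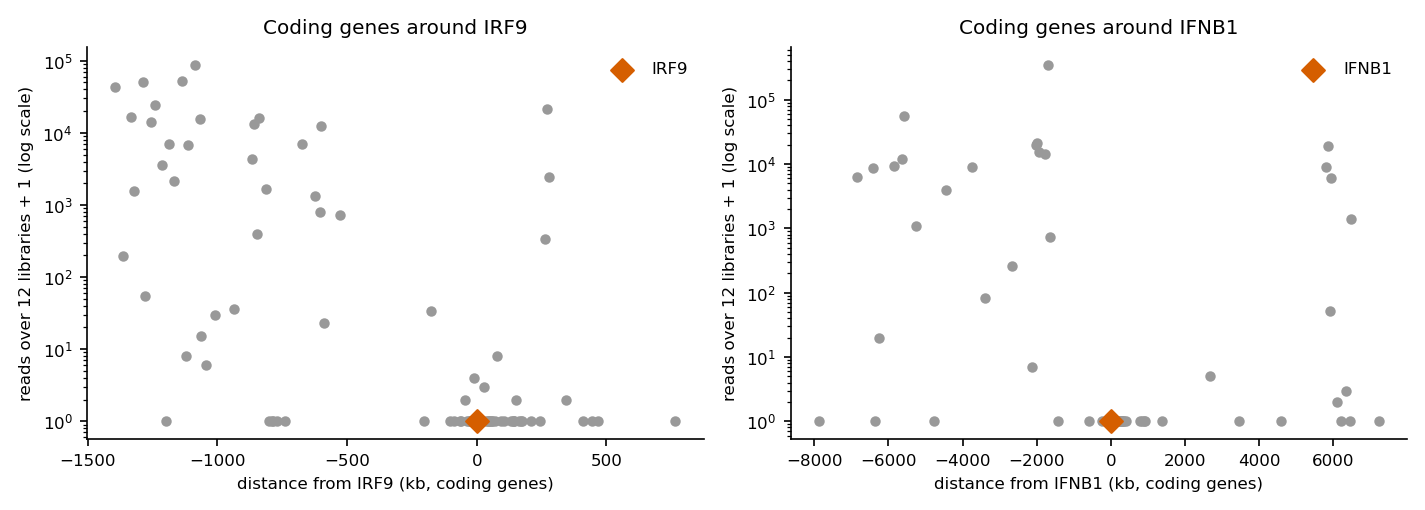
Reads over all 12 libraries plus 1 (log axis) of each coding gene, against the distance of its midpoint from IRF9 (left) and from IFNB1 (right) in kilobases; each point is a gene and the diamond is the gene at the centre. Around IRF9 no coding gene of the run of 37 exceeds 7 reads, and around IFNB1 none of the run of 29 exceeds 4.

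The direct comparisons between knockdowns showed which of these patterns differed. IFIT3 was lower in siACO1 than in siSLC25A1 by a log2 difference of -1.43 (SE 0.11, adjusted p 1.66e-11) and lower than in siACLY by -1.45 (SE 0.11, adjusted p 1.01e-11). Between siACLY and siSLC25A1 IFIT3 differed by 0.02 (adjusted p 0.917, SE 0.10). IFI6 was higher in siACLY than in siSLC25A1 by 1.05 (SE 0.15, adjusted p 2.6e-06) and higher in siACO1 than in siSLC25A1 by 1.24 (SE 0.15, adjusted p 6.63e-08). Between siACO1 and siACLY it differed by 0.20 (adjusted p 0.243). Without siACO1 replicate 3, IFIT3 in siACO1 was at -1.502 against siSLC25A1 and -1.514 against siACLY. IFI6 in siACO1 was then at 1.245 against siSLC25A1. ISG15 differed between no pair of knockdowns at the threshold, with log2 differences of -0.29 (adjusted p 0.082), -0.16 (0.337) and 0.13 (0.442), and MX1 and IFIT1 were not called either.

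Smaller differences between knockdowns concerned the other IFIT genes. IFIT5 was higher in siACLY and in siACO1 than in siSLC25A1, by 0.20 (adjusted p 0.0168) and 0.19 (adjusted p 0.0192). IFIT2 was lower in siACLY than in siSLC25A1 by -0.22 (adjusted p 0.0115). These calls were lost without siSLC25A1 replicate 2 (IFIT5, adjusted p 0.135 and 0.141), siACLY replicate 2 or siACO1 replicate 2 (IFIT5, 0.0728 and 0.0802), siACLY replicate 1 (both genes, 0.0754) or siSLC25A1 replicate 3 (IFIT2, 0.0512). IFI44, which passed the filter only through siSLC25A1 and siACLY, had fitted differences of -1.77 and -1.90 in siACO1 against these groups, a description that rests on 2 to 5 reads per siACO1 library. Of the 7 members at the filter's minimum in all libraries, 3 were called between siACLY and siSLC25A1 (2 higher, 1 lower), 3 between siACO1 and siSLC25A1 (2 higher, 1 lower) and 1, lower, between siACO1 and siACLY. Of all tested genes, 33.8% were called between siACLY and siSLC25A1 (16.3% higher, 17.5% lower), 42.1% between siACO1 and siSLC25A1 (20.3% higher, 21.8% lower) and 42.1% between siACO1 and siACLY (20.7% higher, 21.4% lower).

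The members did not rise and fall as a unit across the 12 libraries. Pearson's r of log2 CPM over the 28 pairs ran from -0.341 (IFIT2 and IFIT5) to 0.935 (IFIT3 and IFI44), given as a description because the libraries share 4 groups. IFI44 has 2 to 18 reads per library and passed the filter only through siSLC25A1 and siACLY, where IFIT3 was high too. Its r with IFIT3 is favoured by how it entered the set. IFIT1 and IFIT5 (0.853), MX1 and IFI6 (0.768) and ISG15 and IFIT2 (0.757) were other close pairs. IFIT3 had an r of 0.058 with IFIT1 and -0.174 with IFI6. Outside the members, the 5 genes closest to their mean standardized profile among 12755 genes ranked were SMPD1 (0.981), TGFB1I1 (0.976), XPR1 (0.967), SPRED3 (0.957) and PLEKHF1 (0.956), and none of these is in the interferon lists used here. That profile, which includes IFI44, was lowest in the 3 siControl libraries (-1.02 to -0.81) and ran from 0.10 to 0.65 in the knockdowns. The way IFI44 entered the set favours a low value in siControl. ISG15 was the member closest to it (0.794), but each member is part of the mean it is compared with, which raises its r.

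The rest of the interferon pathway was read from 8 lists with 140 genes, of which 90 were tested. In siSLC25A1 15 of the 90 were called higher and 13 lower, in siACLY 33 higher and 22 lower, and in siACO1 25 higher and 16 lower, with the same counts without siACO1 replicate 3. These are 31.1%, 61.1% and 45.6% of the tested list genes, beside 19.6%, 36.7% and 37.1% of all tested genes. Some of them, OAS2 for example, passed the filter only through the groups where they were high. The ligands come first in the pathway, and all 20 type I and type III interferon genes in the list were listed at 0 in every library, IFNB1 among them. As for IRF9, the surroundings limit that reading for the cluster on chromosome 9: a run of 29 coding genes from SLC24A2 to TUSC1 (chr9:19507452-25678440) had at most 4 reads each, 28 of them 0, with MTAP, CDKN2A and CDKN2B among these and CAAP1, the next gene, at 8918 reads. MiaPaCa-2 is known to lack CDKN2A, which neighbours the interferon cluster. Why the genes of this run have almost no reads was not tested. Near IFNL1 on chromosome 19, 6 of 9 coding genes within 100000 bases had at most 12 reads over the 12 libraries. The same held for 6 of 8 near IFNL2 and for 6 of 8 near IFNL3.

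Of the receptors and Janus kinases, all 9 were tested: 2 were called higher and 1 lower in siSLC25A1, 3 higher and 1 lower in siACLY, and 2 higher and 0 lower in siACO1 (33.3%, 44.4% and 22.2%, beside 19.6%, 36.7% and 37.1% of all tested genes). IFNAR1, a chain of the type I receptor, measured 111 ± 0.5 CPM in siControl and was called higher in all 3 knockdowns by 0.11 to 0.17 on the log2 scale, with the siACLY call (adjusted p 0.0343) lost without each siControl library and without siACLY replicate 1 or 2, and the siSLC25A1 call (adjusted p 0.0116) lost without siSLC25A1 replicate 3. IFNAR2, its partner, rose by 0.44 in siACO1 (adjusted p 0.0108), a call lost without siControl replicate 3 or siACO1 replicate 2. Its reads are uncertain because 83.2% of its exon bases overlap other genes. JAK1 rose by 0.29 in siSLC25A1 and fell by 0.22 in siACLY, TYK2 was not called in any knockdown (0.06 to 0.08), and JAK2 rose by 0.41 in siACLY. IFNGR2, a chain of the interferon gamma receptor, fell by 0.62 in siSLC25A1 (SE 0.07, adjusted p 2.34e-07).

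**Figure D5:**
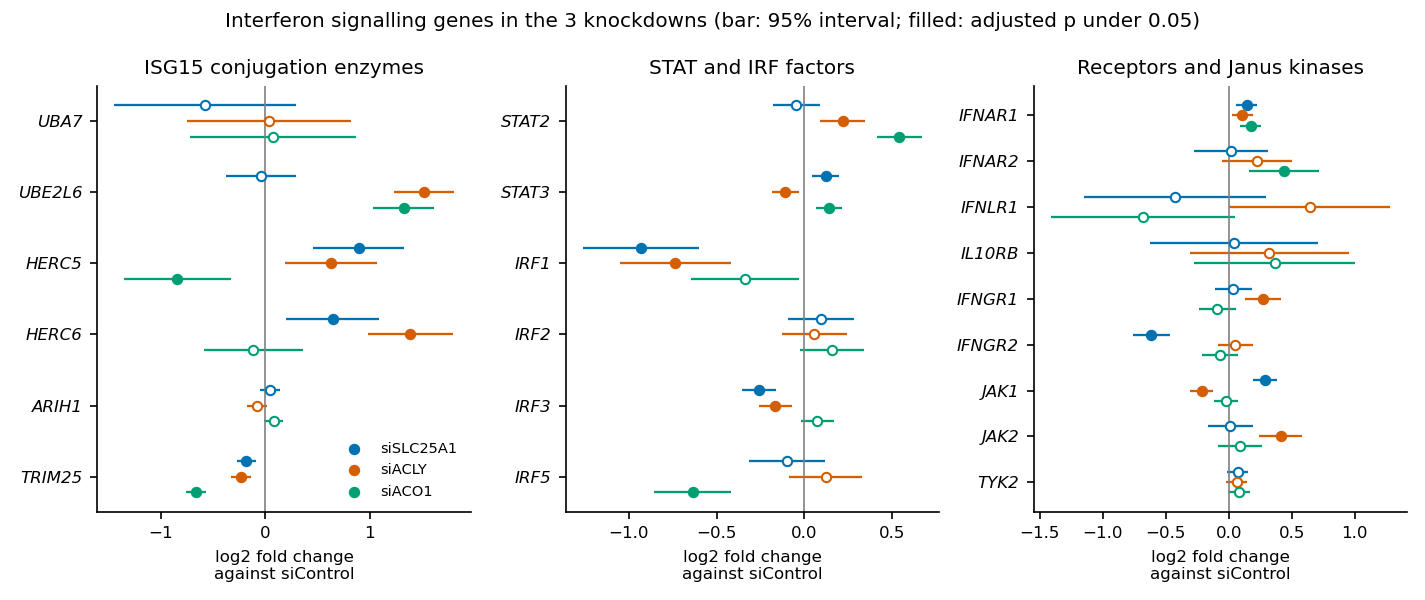
Log2 fold change against siControl (horizontal axis) with 95% intervals for the ISG15 conjugation enzymes, 6 STAT and IRF factors, and the receptors and Janus kinases; filled points have an edgeR adjusted p under 0.05. UBE2L6 is filled at 1.52 in siACLY and 1.33 in siACO1 and open at -0.04 in siSLC25A1, while HERC5 is at 0.90, 0.63 and -0.84 in siSLC25A1, siACLY and siACO1.

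Among the STAT and IRF factors (7 of 9 tested), STAT2, the factor that binds IRF9 directly, measured 32.7, 33.5 and 37.4 CPM in siControl and 53.4, 47.7 and 49.3 CPM in siACO1, wholly above, with a log2 fold change of 0.54 (SE 0.06, adjusted p 5.68e-08). It rose by 0.22 in siACLY (adjusted p 0.00715), a call lost without siControl replicate 1 or siACLY replicate 1, and was at -0.05 in siSLC25A1. IRF1, a transcription factor that binds similar elements, fell by 0.93 in siSLC25A1 and by 0.74 in siACLY and was at -0.34 in siACO1 (adjusted p 0.0763, and 0.0141 without siControl replicate 1), and 22% of its exon bases overlap other genes. IRF5 fell by 0.64 in siACO1. IRF7, which amplifies interferon production, was listed at 0 throughout. Of its 11 coding neighbours within 100000 bases, 6 had at most 12 reads over the 12 libraries together. Its 0 is therefore not read as absence of the transcript.

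Of the 6 enzymes that attach ISG15 to proteins, 2 were called higher and 1 lower in siSLC25A1, 3 higher and 1 lower in siACLY, and 1 higher and 2 lower in siACO1. These are 3, 4 and 3 of 6 genes (50%, 66.7% and 50%), beside 19.6%, 36.7% and 37.1% of all tested genes. UBE2L6, the conjugating enzyme, measured 3.15, 3.00 and 3.15 CPM in siControl, 8.45, 8.69 and 9.60 CPM in siACLY and 7.37, 6.53 and 9.37 CPM in siACO1. The siSLC25A1 libraries overlapped siControl at 2.62 to 3.58 CPM, and both other knockdowns stood well above it, as for IFI6. HERC5, the main ligase, rose in siSLC25A1 (0.90, adjusted p 0.00265) and siACLY (0.63, adjusted p 0.0201) and fell by 0.84 in siACO1 (adjusted p 0.00855), a call lost without siControl replicate 1. The siACLY call of HERC5 was lost without siControl replicate 2 or 3 or siACLY replicate 1. HERC6, a related gene, rose by 1.39 in siACLY and by 0.65 in siSLC25A1, the latter called with adjusted p 0.0338 and lost without any of the siControl libraries or siSLC25A1 replicate 1 or 3. UBA7, the activating enzyme, had 0.35 to 1.14 CPM and was not called (-0.57, 0.04 and 0.08). USP18, which removes ISG15, fell by 0.36 in siACO1 (adjusted p 0.018), a call lost without siControl replicate 1 or 3 or siACO1 replicate 1, with 30.8% of its 31-base words shared with other genes.

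The oligoadenylate synthetases and nucleic acid sensors (14 of 17 tested) held the largest rise against siControl among the tested pathway genes, that of OASL (log2 2.73 in siSLC25A1). OASL, a synthetase-like protein that binds double-stranded RNA, measured 1.00, 0.97 and 0.71 CPM in siControl. It measured 5.51, 5.63 and 7.05 CPM in siSLC25A1, 4.47, 4.73 and 4.16 CPM in siACLY, and 0.72, 0.46 and 0.71 CPM in siACO1. The high and low groups were those of IFIT3, and the value in siACO1 was -0.54 (adjusted p 0.111). IFIH1, the RNA sensor MDA5, measured 0.43 to 0.56 CPM in siControl, 1.33 to 1.53 in siSLC25A1 and 1.40 to 1.62 in siACLY. It measured 0.064 to 0.163 CPM in siACO1, where it fell by 2.10 on the log2 scale (SE 0.44, adjusted p 0.0003), on 2 to 5 reads per library. OAS2 was at 0.17 to 0.29 CPM in siControl, 0.24 to 1.12 in siSLC25A1, 0.93 to 1.39 in siACLY and 0.13 to 0.26 in siACO1. It entered the test only through the groups where it was high, so these levels, on 4 to 53 reads per library, are given as a description.

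The list of other type I targets (38 of 53 tested) had 5 genes called higher and 6 lower in siSLC25A1, 16 and 10 in siACLY and 15 and 6 in siACO1. The shares called were 28.9%, 68.4% and 55.3%, beside 19.6%, 36.7% and 37.1% of all tested genes. LGALS3BP, a secreted glycoprotein, rose by 0.78 in siACLY and 1.42 in siACO1 (SE 0.07, adjusted p 1.51e-15) and was at -0.08 in siSLC25A1, the pattern of IFI6. APOL1, an apolipoprotein, stood at 0.25 to 0.56 CPM in siControl, where not every library reached the filter's minimum of about 0.346 CPM. It thus passed the filter with the help of other groups. Its fitted rises of 2.07 in siACLY and 1.86 in siACO1 are given as a description. BATF2, a leucine zipper factor, rose by 1.33 in siACLY (adjusted p 0.00948), lost without siControl replicate 1 or 3 or siACLY replicate 3. The negative regulators (12 of 12 tested) included SOCS1, an inhibitor of Janus kinases, which rose in all 3 knockdowns by 0.81, 0.53 and 0.66, and ISG20, an exonuclease placed in that list, which rose by 1.51 in siACLY. Of 14 type II targets only 4 were tested. WARS1, a tryptophan-tRNA ligase, fell by 0.72 in siACO1 and by 0.26 in siSLC25A1.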

How the data were processed

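The values deposited by the authors are raw counts, whole numbers without normalization, in a single table with genes in rows and libraries in columns, per the file headers and values. Per the labels' protocols, poly(A) RNA was captured from DNase-treated total RNA and copied with random hexamers. Per the submitters' processing notes, CASAVA, FastQC, Trim Galore, STAR 2.7.0e and DESeq2 were used and the builds GRCm39 and GRCh38 are named without a role. The counting tool, annotation release and use of strand are not given in the sources used here.

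The table's identifiers were matched to symbols by Ensembl ID (62700 of 70116 matched). Places and exon lengths are from GENCODE release 29 (GRCh38), which may differ from the annotation behind the counts. Reads of a gene were called uncertain if other genes covered 20% or more of its exon bases, or if 20% or more of its 31-base words occurred elsewhere. Genes were kept by edgeR's filterByExpr (about 0.346 CPM in at least 3 libraries), scaled by TMM and fitted with edgeR 4.0.16 (R 4.3.3) by robust quasi-likelihood, with the 4 groups and 12 libraries in 1 model, with 8 residual degrees of freedom and a common biological coefficient of variation of 4.89%. Tests were two-sided, adjusted by Benjamini-Hochberg over 16197 genes, and called at an adjusted p under 0.05; every adjusted p is from this fit unless DESeq2 (1.42.0) is named. CPM are relative values and cannot show whether cells held more or less RNA in total. Correlations used log2(CPM + 0.1).

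The members and lists were chosen with earlier results of these data known. Besides the 9 members, genes were named by rule: the targets, fixed parts of the pathway, the 3 largest called changes of each list (with the higher group at 1 CPM or more) and the 5 genes closest to the members' mean profile; genes around IRF9 and IFNB1 and further genes in a list's account were chosen after their values were seen. On simulated counts for siSLC25A1 against siControl (15826 genes), the fit called 92 of 100 genes changed by a log2 of 1, 79 of 100 changed by 0.5 and 4 of 15626 unchanged ones. The changed genes were a smaller share there than the 19.6% called in the data, and adjusted p-values depend on that share. These rates therefore need not hold for the data, and the other comparisons were not simulated. Alternatives were other scaling factors, other filters, DESeq2, a replicate block, the 6 libraries of a comparison alone, a fold threshold and leaving out each library. Promoters are RefSeq sequences of GRCh38.p14. Protein sequences were not used here. The values of 1 gene in the pathway lists are not reported here, and it is included in the counts.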

Additional observations from a re-analysis of the deposited data

How the results depend on the processing

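Of 252 counts recomputed under alternatives, 230 stayed within 1.5 times the count reported, and no called value changed sign. Requiring an absolute log2 fold change of at least 1 as well lowered the members called to 1 in siSLC25A1, 3 in siACLY and 1 in siACO1 against siControl and to 1 for siACLY against siSLC25A1. The same threshold lowered the genes called to 170, 589 and 594 against siControl and to 539, 879 and 848 for siACLY against siSLC25A1, siACO1 against siSLC25A1 and siACO1 against siACLY. In the same order it lowered the other pathway genes called to 3, 11 and 4, and to 6, 9 and 12. For siACO1 against siACLY, 1 member in place of 2 was called with at least 10 counts in every library and with only the 6 libraries compared, because IFI44 was then not tested. Leaving out a library gave 3 to 4 members for siACLY against siControl and 1 to 4 for siACLY against siSLC25A1, where siACLY replicate 1 gave the lowest. Of the 12 member calls against siControl, 6 kept their side of the adjusted p threshold under every alternative other than the fold threshold. They were IFIT3 and ISG15 in siSLC25A1, IFIT3 and IFI6 in siACLY, and ISG15 and IFI6 in siACO1. ISG15, at a log2 of 0.726 in siSLC25A1 and 0.568 in siACO1, lay below the fold threshold. Of the 27 member results that were not called, 3 were called under at least 1 alternative. Library totals without scaling factors moved the share of higher calls from 48.2% to 59% for siACLY against siSLC25A1. Same-numbered libraries showed little common deviation (correlations -0.0794 to 0.125, 2 of 18 over 0.1, and 6 of 12 libraries closest to their own number). These values cannot show whether same-numbered libraries were handled together, and the labels do not say. With the replicate block, 3, 6 and 4 members were called in siSLC25A1, siACLY and siACO1, IFIT1 in siACLY being added (adjusted p 0.0493), and 3270, 6038 and 6093 genes. Depth limits IFI44, with 2 to 18 reads per library, more than any other tested member.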

Other observations

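The following genes were chosen after their values were seen. The IFITM genes, which encode membrane proteins that hinder viral entry, went the opposite way from IFIT3 in siSLC25A1 and siACLY. IFITM1, IFITM2 and IFITM3 fell by 0.95, 0.57 and 0.77 on the log2 scale in siSLC25A1 and by 0.65, 0.70 and 0.67 in siACLY. In siACO1, where IFIT3 was not called, they rose by 0.72, 0.30 and 0.20. The siACO1 call of IFITM3 (edgeR adjusted p 0.0477) was lost without siControl replicate 1 or 3 and without siACO1 replicate 3, where the value was 0.09 (adjusted p 0.215). Their reads are uncertain, since 21.3% to 32.5% of their exon bases overlap another gene and 12.7% to 36.4% of their 31-base words occur elsewhere. DDX60, a helicase linked to RNA sensing, had the pattern of IFIT3, with rises of 1.00 in siSLC25A1 and 1.19 in siACLY and a value of -0.56 in siACO1 (edgeR adjusted p 0.048) that was no longer called without any of the siControl libraries, without siACO1 replicate 1 or 2, or by DESeq2 (adjusted p 0.0674). PARP14, an ADP-ribosyltransferase, rose by 0.88 in siACLY and 0.36 in siACO1, the latter lost without siControl replicate 1 or siACO1 replicate 2.

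Over the 12 libraries the genes closest to IFIT3 were not interferon targets of the lists used here: PORCN (r = 0.988), COL17A1 (0.985) and PLAU (0.98). The gene closest to IFI6 was INSIG1, a regulator of sterol synthesis (0.979). These are descriptions over libraries that share 4 groups. IFI27, IFI44L, XAF1, EPSTI1 and RTP4, interferon targets that are often used beside the members, were listed at 0 in every library, and all 6 coding neighbours of IFI27 within 100000 bases had at most 12 reads. So had 3 of 4 neighbours of XAF1, the 1 neighbour of RTP4, and 1 of 2 neighbours each of IFI44L and EPSTI1. Of 19855 coding genes of release 29 in the table, 4285 were at 0 in every library. These 0 values alone do not show that the transcripts were absent.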
